A study of Mus musculus with 24 samples.

Results

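Lungs of mice given tangled carbon nanotubes (tCNT, 3 samples) were set against lungs of mice given BayTubes (4 samples), over every measured gene. These 7 samples, chosen by their titles and not by any measured value, belong to a series of 24. All mice were female C57BL/6, 7 to 8 weeks old. The nanotubes were suspended in phosphate-buffered saline (PBS), and a droplet of 50 µl carrying 10 µg was placed in the throat to be inhaled (oropharyngeal aspiration), daily for 4 days. Vehicle mice (Ctrl, 3 samples) received PBS alone by the same route, and lungs were collected 24 h after the final droplet. The other groups of the series received rCNT, SES, Graphite or fullerene. Each sample was RNA pooled from 2 mice, so the spread between samples is a spread between pools, and in whole lung fewer cells of a type and less RNA per cell cannot be told apart. BayTubes are a commercial product made of multi-walled carbon nanotubes, and both products form flexible, entangled fibres.

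Inhaled fibres and particles are taken up by lung macrophages, which release chemokines that draw neutrophils and monocytes, while the airway lining can respond with mucus and the lung tissue with cell division. Lung cells also run a circadian clock. In it the activator pair CLOCK and ARNTL switches on the period genes (Per1, Per2, Per3), the cryptochromes and the nuclear receptors NR1D1 and NR1D2 through E-boxes. The period and cryptochrome proteins then restrain that pair, and the NR1D receptors hold down Arntl through ROR elements. Output factors such as DBP, HLF and TEF carry the rhythm on to other genes through D-boxes.

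Signals were measured on 12 two-colour arrays on 3 slides, each dye holding its own sample, and are given as log2 signal. Precision rests on how many samples there are, as arrays have no read depth. Over 16530 genes the median standard error of a difference between the nanotubes was 0.14. tCNT 7 and BayTubes 17 lay on the same array, and the residuals of such pairs correlated with a median of 0.64, against -0.07 for samples on different arrays. Slide 1 held 2 of the tCNT and 3 of the BayTubes samples. Residual SDs of the 7 samples were 0.173 to 0.270, below the 0.495 of rCNT 4, the highest in the series.

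Few genes separated the 2 nanotubes, and members of the core clock and clock output lists made up 6 of the 15 that did. Whether the 9 in neither list follow the clock was not tested. Of 16530 genes, 15 differed at an adjusted p under 0.05 (limma, 2-sided, Benjamini-Hochberg over all genes), which is 0.0907%. Of these, 8 were higher (0.0484%) and 7 lower (0.0423%) after tCNT. An unadjusted p under 0.05 was reached by 585 genes (3.54%), of which 446 were higher and 139 lower after tCNT. The 95% interval of the difference lay within 2-fold in either direction for 15844 genes (95.8%), with a median half-width of 0.29 on the log2 scale. Against the same 3 Ctrl samples, 117 genes changed after tCNT (0.708%), of which 113 rose (0.684%) and 4 fell (0.0242%). After BayTubes 526 changed (3.18%), of which 357 rose (2.16%) and 169 fell (1.02%). The median standard error against Ctrl was 0.16 for tCNT and 0.13 for BayTubes. BayTubes 18 and BayTubes 20 shared arrays with Ctrl 2 and Ctrl 3, while no tCNT sample shared an array with Ctrl. Counts against Ctrl therefore do not compare the sizes of the responses. With 1 sample left out, the count after tCNT ran from 0 without tCNT 8 (697 at an unadjusted p under 0.05) to 327 without tCNT 7, and the count after BayTubes from 241 without Ctrl 2 to 558. The number that differed between the nanotubes was 3 without tCNT 7, 2 without tCNT 8, 5 without tCNT 9, 7 without BayTubes 17, 6 without BayTubes 18 and 4 without BayTubes 19, and Arntl and Spon2 were among them each time.

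The plot of all differences against their p-values shows Spon2 and Arntl far above the other genes.

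**Figure D1:**
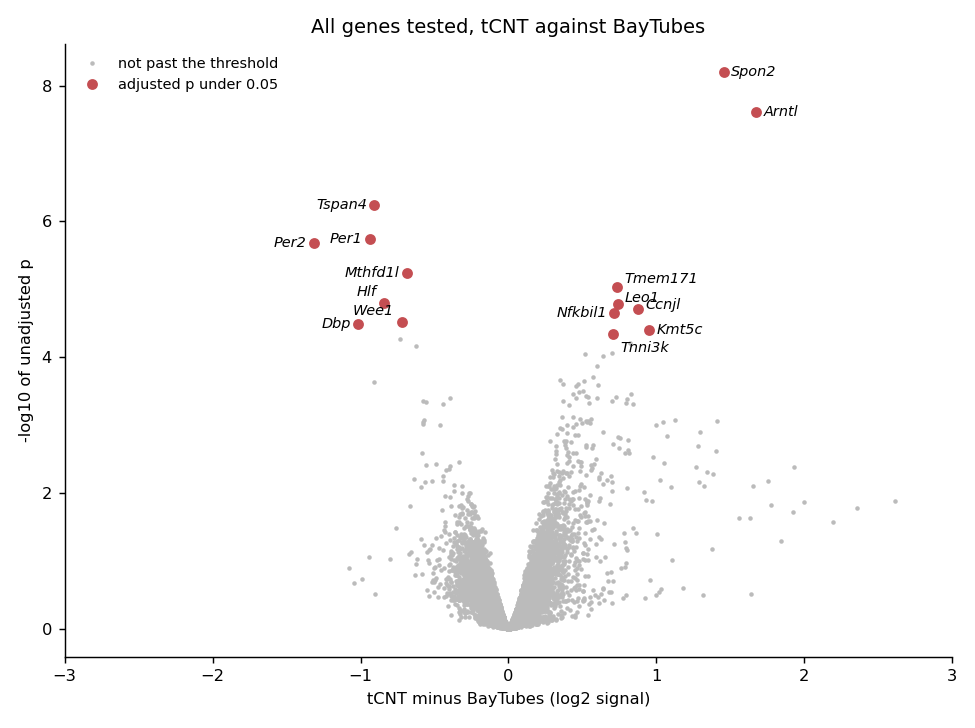
Each point is a gene, placed by its difference in log2 signal (tCNT minus BayTubes, horizontal) and by -log10 of its unadjusted limma p (vertical); red points have an adjusted p under 0.05. The 15 red points lie on both sides, Arntl and Spon2 the farthest up on the right and Per2 the farthest left, while genes with larger differences such as Clca1 (2.61, at the right edge) stay low, with a standard error of 0.96 for Clca1.

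Clock genes passed the test in both directions. Of 22 measured clock and clock output genes (of 23 listed), 1 was higher after tCNT than after BayTubes (Arntl) and 5 were lower (Per1, Per2, Dbp, Hlf and Wee1). Over all genes 0.0484% were higher and 0.0423% lower. The median difference of the 22 was -0.38, against -0.00059 over all genes. In 7 of the 22 every tCNT sample lay below every BayTubes sample, which held for 1.75% of all genes, and in 1 every tCNT sample lay above, which held for 2.68%. Against the shared Ctrl samples, 8 of the 22 were higher and 1 lower after BayTubes, while after tCNT 0 were higher and 1 was lower. Over all genes 2.16% were higher and 1.02% lower after BayTubes, and 0.684% and 0.0242% after tCNT. The clock lists were drawn up with earlier results of these samples known, so their counts are a description.

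The motifs through which the clock acts were looked up in promoters, since E-boxes, D-boxes and ROR elements are the textbook sites of this loop. RefSeq promoters (GRCm38.p6, 250 bases before to 50 after a start) were at hand for 19 of the 22 genes, and both strands were searched. The windows printed are 5′ to 3′ on the gene's strand, with the motif in capitals. The E-box CACGTG stood in promoters of 6 genes (Bhlhe41, Ciart, Cry1, Lonrf3, Per1 and Tef), that is in 7 of 26 promoters (26.9%), against 7.15% of all 32851 promoters. Of these 6 genes only Per1 passed between the nanotubes, so the share describes the lists and not the genes that differed. The D-box TTATGNAA stood in those of Per1 and Per3 (7.69% of the 26, against 3.38%), and the ROR element, AANTN followed by GGTCA, in that of Arntl alone (3.85%, against 0.606%). No letters of these 3 motifs were found in the windows of Dbp and Hlf, and Per2, Wee1 and Bhlhe40 were not looked up. Ciart had a further E-box at -116 from the start, which is not shown. The windows shown are those of Arntl and Per1, which moved in opposite directions, and of Ciart, which carries paired E-boxes. They lie at chr7:113207528-113207557 (plus strand, 28 bases past the start) for Arntl, at chr11:69098753-69098818 and chr11:69098895-69098948 (plus strand) for Per1, and at chr3:95882251-95882316 (minus strand) for Ciart.
Arntl, ROR element: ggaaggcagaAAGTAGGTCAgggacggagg
Per1, E-box: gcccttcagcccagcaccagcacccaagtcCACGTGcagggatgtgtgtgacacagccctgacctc
Per1, D-box: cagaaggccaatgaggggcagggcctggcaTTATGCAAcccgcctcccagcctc
Ciart, 2 E-boxes: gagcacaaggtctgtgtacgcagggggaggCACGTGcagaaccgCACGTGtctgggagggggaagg

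Arntl, the activator of the clock, had log2 signals of 9.03, 8.69 and 9.14 after tCNT, against 7.31, 6.99, 7.36 and 7.65 after BayTubes and 9.36, 9.70 and 9.46 in Ctrl. All tCNT samples lay above all BayTubes samples by more than 1 unit and below all Ctrl samples. The difference was 1.67 ± 0.19 (SE), or 3.19-fold higher after tCNT, with a 95% interval of 1.28 to 2.07 and an adjusted p of 0.000205 (limma). Against Ctrl, Arntl fell by 2.19 after BayTubes (adjusted p = 9.0e-07), and its difference after tCNT was -0.52 (adjusted p = 0.43). With array as a fixed term, which uses only differences within arrays, the difference was 1.71 and did not pass (adjusted p = 0.097, limma). In that fit Per2 alone of the 6 clock genes passed (-1.42, adjusted p = 0.030), while Per1 (-0.98), Dbp (-1.16), Hlf (-0.74) and Wee1 (-0.62) had adjusted p from 0.37 to 0.9999. On the array that tCNT 7 and BayTubes 17 shared, the plain difference was 1.73 for Arntl and -1.47 for Per2. It was -0.97 for Dbp, -0.84 for Wee1, -0.39 for Per1 and -0.48 for Hlf. Plain differences still hold the dye effect, as these samples carried different dyes. Less the fitted dye effect, the values were -0.65 for Per1 and -0.53 for Hlf, smaller in size than in the fit of all samples. Clock, the partner of Arntl, differed by 0.49 (95% interval 0.15 to 0.83, adjusted p = 0.709, limma). Npas2, which can stand in for Clock, differed by 0.24 (0.03 to 0.45, adjusted p = 0.9997). Its means of 5.78 after tCNT and 5.52 after BayTubes were close to the 40th percentile of the arrays (5.69 to 5.75).

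Per2 and Per1 passed in the other direction. Per2, a repressor of the activator pair, had 8.22, 8.57 and 9.20 after tCNT, against 9.70, 10.04, 10.01 and 9.97 after BayTubes and 8.59, 8.57 and 8.47 in Ctrl. The groups did not overlap, tCNT 9 came nearest to BayTubes, and the other tCNT samples lay near Ctrl. The difference of -1.31 ± 0.20 (SE, adjusted p = 0.00697) was the lowest of all genes and equals 2.48-fold more signal after BayTubes. Against Ctrl, Per2 rose by 1.43 after BayTubes (adjusted p = 0.00027) and differed by 0.12 after tCNT (adjusted p = 0.97).

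Per1, also induced by glucocorticoids, showed another arrangement of the groups. It had 12.68, 12.20 and 12.47 after tCNT, against 13.07, 13.44, 13.65 and 13.19 after BayTubes and 13.27, 13.39 and 13.01 in Ctrl. Here the tCNT samples stood apart below BayTubes and Ctrl, which overlapped. A low Per1 was not particular to tCNT. Its mean was 12.45 after tCNT, 12.37 after rCNT, 12.72 after SES and 12.83 after Graphite. In Ctrl the mean was 13.22, and after fullerene 13.58. The difference between the nanotubes was -0.94 ± 0.14 (SE, adjusted p = 0.00697). Against Ctrl, Per1 fell by 0.90 after tCNT (adjusted p = 0.015) and differed by 0.04 after BayTubes (adjusted p = 0.96). A dimmer spot of Per1, with a mean signal of 5.90 close to the 40th percentile of the arrays, differed by -0.29, and averaging the 2 spots gave -0.62. Per3 had 6.97, 7.12 and 6.67 after tCNT, against 7.85, 8.20, 8.12 and 6.95 after BayTubes, and its difference of -0.91 ± 0.20 did not pass (adjusted p = 0.144). BayTubes 20 was the sample that brought those groups to overlap.

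**Figure D2:**
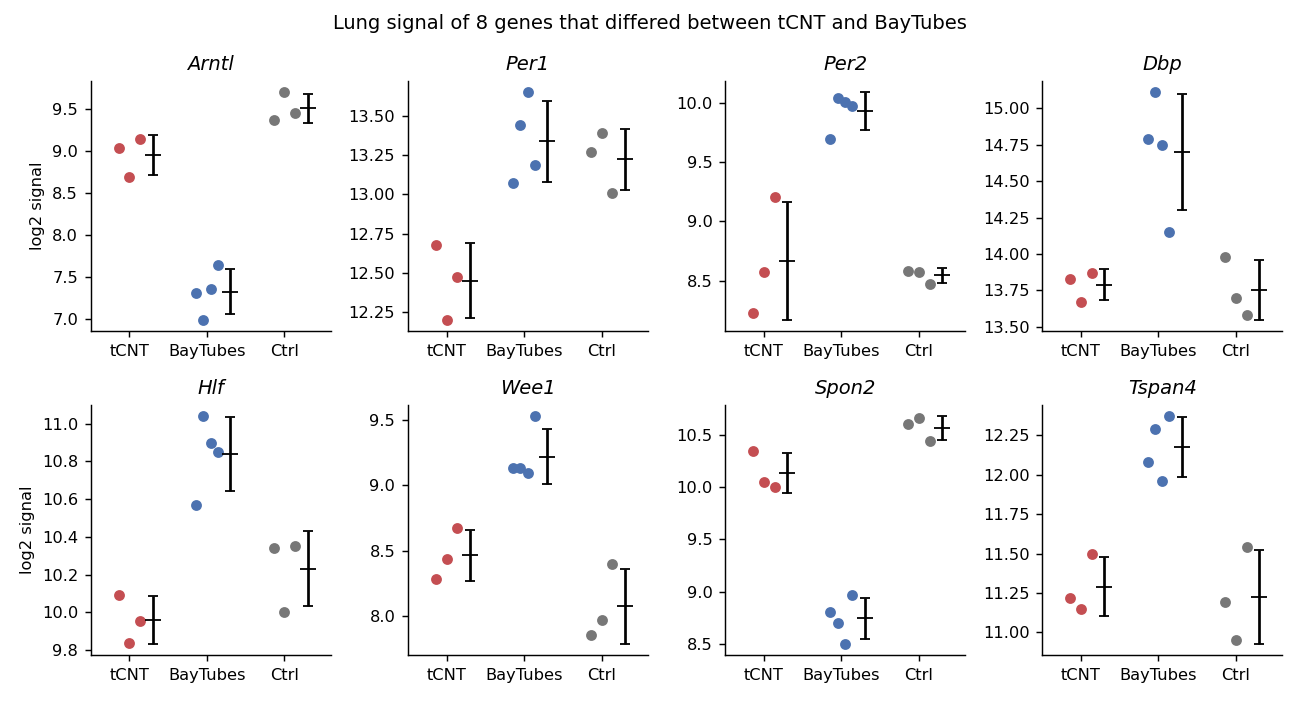
Log2 signal (vertical, a separate scale for each gene) of 8 genes that differed between the nanotubes, for the 3 tCNT samples (red), 4 BayTubes samples (blue) and 3 Ctrl samples (grey); the black mark and bar beside each group are its mean and SD. In all 8 panels the red and blue points do not overlap; for Arntl, Per2, Dbp and Spon2 the tCNT mean lies nearer to Ctrl, while for Per1 the BayTubes mean does.

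Of 11 measured clock output genes, 3 were lower after tCNT than after BayTubes (0.0423% of all genes) and 8 did not pass. Dbp, a factor that binds D-boxes, had 13.83, 13.67 and 13.87 after tCNT, against 14.79, 15.11, 14.75 and 14.15 after BayTubes and 13.98, 13.70 and 13.58 in Ctrl. The tCNT samples lay among the Ctrl samples and below all BayTubes samples, of which BayTubes 20 was the lowest. The difference was -1.02 ± 0.19 (SE, adjusted p = 0.0406), and a second spot of Dbp gave -1.19. Hlf, of the same family, had 10.09, 9.84 and 9.96 after tCNT, against 10.57, 11.04, 10.90 and 10.85 after BayTubes. It had 10.34, 10.00 and 10.35 in Ctrl. The nanotube groups did not overlap, with a difference of -0.84 ± 0.15 (adjusted p = 0.0297). Wee1, a kinase that holds back entry into mitosis and whose transcription the clock drives in mouse liver, had 8.29, 8.44 and 8.68 after tCNT, against 9.13, 9.13, 9.09 and 9.53 after BayTubes and 7.86, 7.97 and 8.40 in Ctrl. Its difference was -0.72 ± 0.13 (adjusted p = 0.0406), and against Ctrl it rose by 1.19 after BayTubes (adjusted p = 2.9e-05), while tCNT differed from Ctrl by 0.47 (adjusted p = 0.23).

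Other repressors and outputs were near the threshold or short of it. Nr1d2, a repressor of Arntl, had 10.83, 10.75 and 10.73 after tCNT, against 11.48, 11.62, 11.55 and 11.29 after BayTubes. Ciart, a repressor of the activator pair, had 7.99, 7.87 and 8.25 after tCNT, against 8.45, 8.79, 8.94 and 8.48 after BayTubes. In both, the groups did not overlap and tCNT was the lower, with differences of -0.73 (adjusted p = 0.0549) and -0.63 (adjusted p = 0.0617). Nr1d1 differed by -0.46, with an interval of -1.08 to 0.16. Cry1 (-0.29), Cry2 (-0.23), Rora (-0.30), Tef (-0.56), Usp2 (-0.49), Tsc22d3 (-0.30), Bhlhe40 (-0.29) and Bhlhe41 (-0.26) also had negative differences, and Nfil3 (0.47) and Lonrf3 (0.04) positive ones, and none of these 10 passed. The plot of intervals shows Arntl apart on the right and 17 of the 22 genes left of 0.

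**Figure D3:**
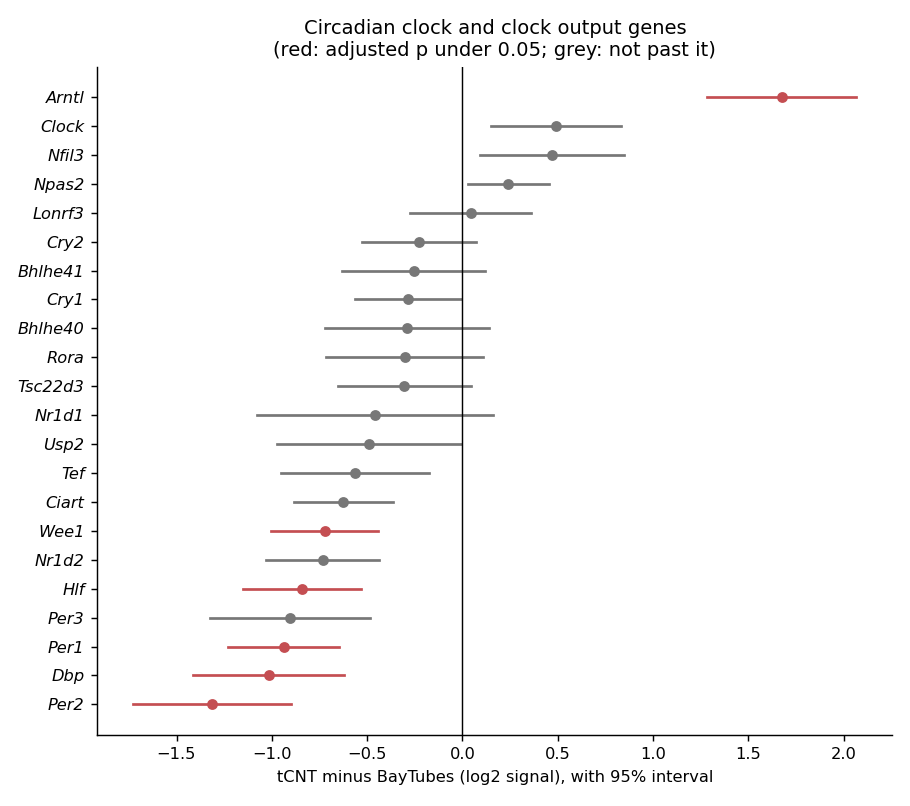
Difference in log2 signal between tCNT and BayTubes (horizontal, point) with its 95% interval (line) for the 22 measured clock and clock output genes, ordered by size; red marks an adjusted p under 0.05 and grey the rest. Arntl stands alone at the top at 1.67, and Per2, Dbp, Per1, Hlf and Wee1 lie between -1.31 and -0.72.

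Among all groups of the series, the mean nearest to BayTubes was that of fullerene for both Arntl and Per2. Mean Arntl was 8.95 ± 0.24 (SD, n = 3) after tCNT and 7.33 ± 0.27 (n = 4) after BayTubes, with 9.13 after rCNT, 8.77 after SES, 8.45 after Graphite, 7.44 after fullerene and 9.51 in Ctrl. Mean Per2 was 8.67 ± 0.50 after tCNT and 9.93 ± 0.16 after BayTubes, with 8.16 after rCNT, 8.93 after SES, 8.87 after Graphite, 10.14 after fullerene and 8.54 in Ctrl. For both genes the ranges of BayTubes and fullerene overlapped, and no sample of any other group reached the range of BayTubes. Titles number the samples group by group, in the order Ctrl, rCNT, tCNT, SES, Graphite, BayTubes and fullerene. In that order mean Arntl was 9.51, 9.13, 8.95, 8.77, 8.45, 7.33 and 7.44, falling at every step up to BayTubes. Mean Per2 did not rise at every step. Material and number order cannot be told apart, and the part of that order was not tested. Within slide 1, with its 2 tCNT and 3 BayTubes samples, the differences were 1.69 for Arntl, -1.50 for Per2, -0.96 for Per1, -1.20 for Dbp, -0.82 for Hlf and -0.75 for Wee1. None passed there (adjusted p = 0.0995 for Arntl, limma), and all 15 genes kept their sign. The slide 1 samples were among those on which the 15 were called, so the kept signs are no separate evidence. Mice were kept under a cycle of light and dark, and the labels give no hour of sampling for any lung, so the part of that hour in the clock genes was not tested.

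The gene with the smallest p was in neither clock list. Spon2, a secreted matrix protein that binds microbial surfaces, had 10.35, 10.05 and 10.00 after tCNT, against 8.81, 8.70, 8.50 and 8.97 after BayTubes and 10.60, 10.66 and 10.44 in Ctrl. The tCNT samples lay more than 1 unit above every BayTubes sample and below every Ctrl sample, as they did for Arntl. The difference was 1.45 ± 0.15 (SE), or 2.74-fold, with an adjusted p of 0.000104, and Spon2 fell by 1.81 against Ctrl after BayTubes (adjusted p = 9.0e-07) and differed by -0.35 after tCNT (adjusted p = 0.55). The array shared by tCNT 7 and BayTubes 17 gave a plain difference of 1.54, or 1.62 less the dye effect. Slide 1 alone gave 1.55, and the fit with array as a fixed term gave 1.53 (adjusted p = 0.031, limma). Its mean of 8.57 after fullerene was again close to the 8.74 after BayTubes. Means after SES (9.89) and Graphite (9.60) lay between those of tCNT (10.13) and BayTubes.

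Tspan4, a tetraspanin of the cell membrane, had 11.22, 11.15 and 11.50 after tCNT, against 12.08, 12.29, 11.96 and 12.37 after BayTubes and 11.19, 10.95 and 11.54 in Ctrl. The tCNT and Ctrl samples overlapped, and all BayTubes samples lay above them. The difference was -0.91 ± 0.12 (SE, adjusted p = 0.00319). Mthfd1l, a mitochondrial enzyme of folate metabolism, had 8.29, 8.68 and 8.74 after tCNT, against 9.22, 9.31, 9.23 and 9.37 after BayTubes and 8.21, 8.09 and 8.56 in Ctrl. The BayTubes samples were close together and above the others, and the difference was -0.69 ± 0.11 (adjusted p = 0.0161). Against Ctrl both genes rose after BayTubes (limma), Tspan4 by 1.00 (adjusted p = 0.0001) and Mthfd1l by 1.04 (adjusted p = 1.6e-05). After tCNT the differences were 0.09 and 0.36 (adjusted p = 0.96 and 0.32). High levels were not particular to BayTubes. Mean Tspan4 was 12.31 after fullerene, against 12.17 after BayTubes, and mean Mthfd1l was 9.46, against 9.28. After Graphite the means were 11.75 and 8.98, between those of tCNT and BayTubes.

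A further 5 genes were higher after tCNT than after BayTubes and lower after BayTubes than in Ctrl. They were Tmem171, Leo1 of the PAF1 complex that follows RNA polymerase II, the cyclin-like Ccnjl, Nfkbil1 and Kmt5c, which methylates histone H4. Ccnjl had 8.17, 7.81 and 8.17 after tCNT, against 7.03, 7.34, 7.09 and 7.66 after BayTubes and 8.60, 8.23 and 8.46 in Ctrl. Kmt5c had 11.80, 12.07 and 11.41 after tCNT, against 10.93, 11.16, 10.77 and 10.38 after BayTubes and 11.73, 11.86 and 12.16 in Ctrl. For both the nanotube groups did not overlap, with BayTubes 20 the nearest for Ccnjl and BayTubes 18 for Kmt5c. On the array of tCNT 7 and BayTubes 17, Leo1 differed by 0.45, or by 0.53 less the dye effect, against 0.74 in the fit. Differences between the nanotubes ran from 0.71 for Nfkbil1 to 0.95 for Kmt5c, with adjusted p from 0.0219 to 0.0463. All 5 fell against Ctrl after BayTubes, by 0.63 (Nfkbil1) to 1.09 (Kmt5c), and after tCNT their differences from Ctrl were -0.20 to 0.08 and did not pass. Mean Kmt5c was also low after SES (10.77) and Graphite (10.79), and mean Nfkbil1 was 9.56 after SES and 9.50 after Graphite, against 9.51 after BayTubes. After fullerene mean Tmem171 was 7, against 7.025 after BayTubes. Likewise mean Leo1 was 8.72 after fullerene, against 8.75, and mean Ccnjl 7.52, against 7.28. Mean Nfkbil1 (10.05) and Kmt5c (11.29) were higher after fullerene than after BayTubes.

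Of the 15 genes, Tnni3k alone passed as higher after tCNT against both BayTubes and Ctrl. This kinase of heart muscle had 7.34, 6.72 and 7.07 after tCNT, against 6.48, 6.29, 6.55 and 5.99 after BayTubes and 6.48, 6.33 and 5.97 in Ctrl. The tCNT samples lay above all the others, tCNT 8 by the least. The difference was 0.71 ± 0.14 (SE, adjusted p = 0.0493) from BayTubes and 0.73 (adjusted p = 0.032) from Ctrl. Srl, which codes for sarcalumenin, a calcium-binding protein of muscle, differed by 0.82 from BayTubes (adjusted p = 0.0594) and by 0.79 from Ctrl (adjusted p = 0.051).

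Heart muscle markers are given beside these genes. In 12 of 17 markers every tCNT sample lay above every BayTubes sample (2.68% of all genes), and the median difference was 0.97. Yet 0 of 17 passed an adjusted p under 0.05 (limma), while 12 had an unadjusted p under 0.05 (3.54% of all genes). The mean level of the 17 was 9.36, 9.33 and 9.75 after tCNT, against 8.60, 8.85, 8.46 and 8.45 after BayTubes and 9.10, 7.92 and 8.75 in Ctrl. The tCNT samples were above those of BayTubes and Ctrl, and the Ctrl samples spread over more than 1 unit. In the rest of the series Graphite 15 had 9.38, above tCNT 7 and tCNT 8. Group means were 9.48 after tCNT and, in the other groups, from 8.56 (Graphite) to 8.82 (SES). Nppa, the atrial natriuretic peptide, had 10.06, 9.01 and 9.51 after tCNT, against 7.26, 8.46, 6.50 and 6.27 after BayTubes and 10.63, 6.38 and 6.51 in Ctrl, so Ctrl 1 exceeded every tCNT sample. Myh6, the myosin of atrial and adult mouse heart muscle, had 13.31, 13.30 and 13.71 after tCNT, against 11.86, 12.59, 11.77 and 11.82 after BayTubes and 12.78, 10.37 and 12.54 in Ctrl. Its difference between the nanotubes was 1.55 (95% interval 0.23 to 2.88). The median of the 17 within slide 1 was 0.83. The part of heart tissue in Tnni3k and Srl was not tested.

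No listed gene of inflammation passed the test between the nanotubes. Of 16 measured chemokines and cytokines that draw neutrophils and monocytes (17 listed), 0 differed between tCNT and BayTubes at an adjusted p under 0.05 (limma). An unadjusted p under 0.05 was reached by 2 of them, against 3.54% of all genes. The median difference was -0.20, and for 11 of the 16 the interval lay within 2-fold. Against the shared Ctrl samples the median was 0.81 after tCNT and 1.11 after BayTubes. Past the threshold and higher were 1 and 8 genes, against 0.684% and 2.16% of all genes.

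Ccl2, which draws monocytes, had 8.55, 8.04 and 8.84 after tCNT, against 9.20, 9.80, 8.78 and 9.73 after BayTubes and 6.88, 7.48 and 7.53 in Ctrl. Both nanotube groups lay above every Ctrl sample and overlapped with each other at BayTubes 19. The difference between them was -0.76 (95% interval -1.46 to -0.07, adjusted p = 0.9997), and Ccl2 rose by 2.07 against Ctrl after BayTubes (adjusted p = 0.00084) while tCNT differed from Ctrl by 1.31 (adjusted p = 0.14). Ccl8, another monocyte attractant, rose after both, by 1.98 after tCNT (adjusted p = 0.048) and by 2.03 after BayTubes (adjusted p = 0.0037). Its difference between the nanotubes was -0.05, with an interval of -0.88 to 0.78. Cxcl1, which draws neutrophils, differed by -0.06 (-0.63 to 0.51) between the nanotubes. Ccl3 had 7.63, 7.64 and 7.72 after tCNT, against 8.63, 7.73, 8.57 and 7.91 after BayTubes, so tCNT lay below by a narrow margin at BayTubes 18. The median of the list was 0.04 without tCNT 7 and -0.42 without tCNT 8.

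Of 16 measured acute phase genes (18 listed), 0 differed between the nanotubes (limma), 1 had an unadjusted p under 0.05 (3.54% of all genes) and the median difference was -0.08. Saa3, the serum amyloid A made in lung and macrophages, had 10.28, 10.38 and 10.63 after tCNT, against 11.60, 10.67, 11.52 and 11.78 after BayTubes and 7.94, 7.99 and 8.30 in Ctrl. The tCNT samples lay between the other groups, just below BayTubes 18. The difference was -0.94 with an interval of -2.04 to 0.15, so a difference of more than 2-fold was not excluded by it. Saa3 rose by 3.13 against Ctrl after BayTubes (adjusted p = 0.0012), and tCNT differed from Ctrl by 2.19 (adjusted p = 0.11). The fibrinogen chain Fgg rose after both, by 1.19 after tCNT (adjusted p = 0.018) and by 0.70 after BayTubes (adjusted p = 0.038), and differed by 0.49 between them.

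Type 2 immunity is the response of allergy and worm infection. Of 22 measured genes of it 0 differed between tCNT and BayTubes, 0 had an unadjusted p under 0.05 (limma), the median was -0.03, and for 18 the interval lay within 2-fold. Retnla, a secreted product of alternatively activated macrophages and airway cells, had 16.66, 16.93 and 16.30 after tCNT, against 16.69, 16.00, 16.20 and 16.49 after BayTubes and 13.92, 13.78 and 13.47 in Ctrl. It rose after both nanotubes, by 2.93 after tCNT (adjusted p = 0.0024) and by 2.63 after BayTubes (adjusted p = 0.00031). The nanotube groups overlapped across their ranges, with a difference of 0.30 (-0.48 to 1.07). Il33, an alarm cytokine of the epithelium, rose by 1.09 after BayTubes (adjusted p = 0.0015) and differed from Ctrl by 0.78 after tCNT (adjusted p = 0.11).

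Mitosis genes differed little between the nanotubes. All 21 measured mitosis genes (23 listed) differed by -0.18 to 0.14 between the nanotubes, each interval lay within 2-fold, and 0 passed, also at an unadjusted p under 0.05 (limma). Against Ctrl their medians were 1.23 after tCNT and 1.31 after BayTubes. Past the threshold and higher were 7 and 17 genes, against 0.684% and 2.16% of all genes. Cdk1, the kinase that drives entry into mitosis, had 7.98, 8.39 and 7.92 after tCNT, against 8.75, 7.75, 7.90 and 8.39 after BayTubes and 6.49, 6.80 and 6.62 in Ctrl. Both nanotube groups lay above every Ctrl sample and across each other. Of 20 DNA replication genes 0 differed, every interval lay within 2-fold, and the median was -0.10.

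Set against Ctrl, list medians were 1.25 after tCNT and 0.63 after BayTubes for mucus genes, -0.04 and 0.31 for core clock genes, -0.01 and 0.55 for clock output genes, and 1.21 and 0.02 for heart muscle. Fat cell markers had 0.34 after tCNT and -0.19 after BayTubes, and club and airway secretory cell markers 0.45 and 0.06. Both sets of medians share the Ctrl samples, so their errors are shared.

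**Figure D4:**
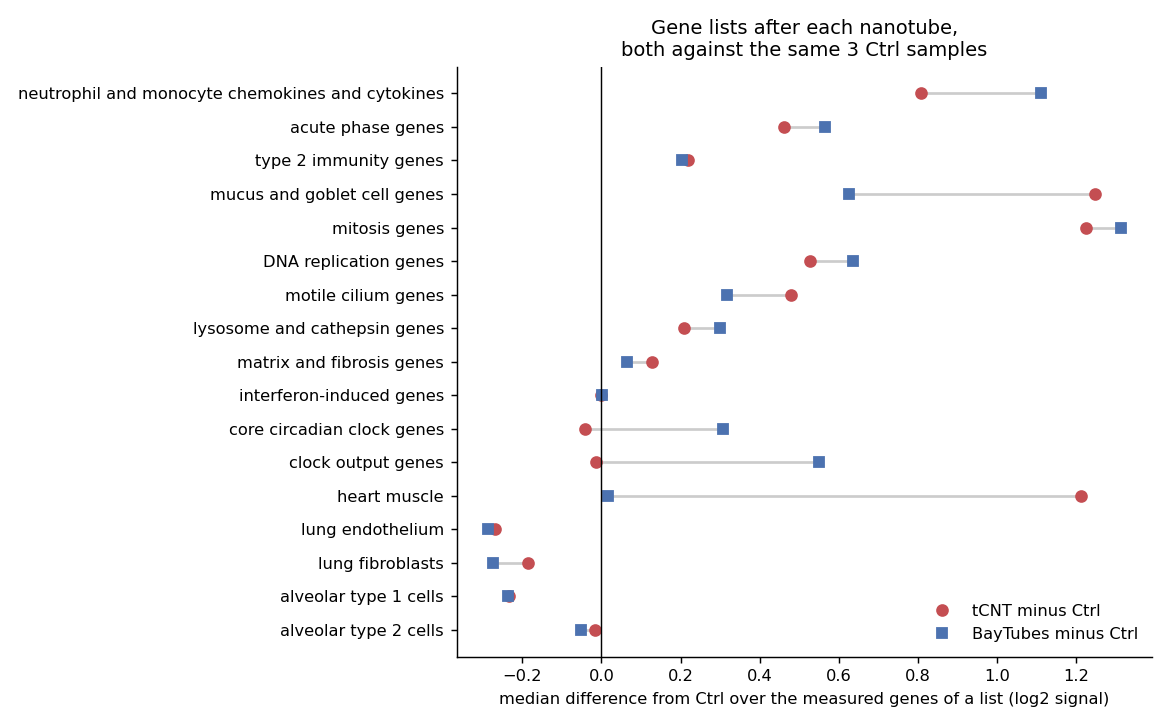
Median difference from Ctrl in log2 signal (horizontal) over the measured genes of 17 lists, for tCNT (red circles) and BayTubes (blue squares), which share the same 3 Ctrl samples; the grey line joins both values of a list and the black line marks 0. The wide gaps are those of heart muscle, mucus, clock output and core clock genes, the gap of chemokines follows, and the symbols lie close together for mitosis, type 2, interferon and alveolar lists.

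No mucus or goblet cell gene passed the test between the nanotubes. Of 16 measured genes (18 listed), 14 had positive differences, 6 had an unadjusted p under 0.05 and 0 passed an adjusted p under 0.05 (limma). Over all genes 8239 of 16530 differences were positive, and 3.54% had an unadjusted p under 0.05. The median of the list was 0.42. Clca1, a secreted protein of goblet cells, had 14.21, 12.31 and 12.53 after tCNT, against 12.51, 10.29, 10.44 and 10.58 after BayTubes and 7.33, 7.14 and 7.61 in Ctrl. BayTubes 17 stood within the tCNT range, and the other BayTubes samples lay between tCNT and Ctrl. The difference of 2.61 was the highest of all genes, with an interval of 0.61 to 4.62 (adjusted p = 0.916, limma). This value includes a fitted dye effect of -1.35 for Clca1. Plain means were 13.01 after tCNT and 10.96 after BayTubes. On the array of tCNT 7 and BayTubes 17 the plain difference was 1.69, or 3.05 less the dye effect. Muc5b, a gel-forming mucin, had 13.42, 13.32 and 13.31 after tCNT, against 13.30, 12.55, 12.21 and 12.17 after BayTubes and 11.80, 11.16 and 11.27 in Ctrl, again with BayTubes 17 next to the tCNT samples. Gp2 differed by 1.93 (0.69 to 3.17) and Tff2, a trefoil peptide secreted with mucus, by 1.10 (0.32 to 1.88).

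Against Ctrl, Clca1 (5.83), Agr2 (2.48), Slc26a4 (2.46), Tff2 (2.25) and Muc5b (2.01) rose after tCNT (adjusted p = 0.0024 to 0.020). After BayTubes, Slc26a4 (2.29) and Agr2 (1.94) rose, and Clca1 differed by 3.21 (adjusted p = 0.059). The mean level of the list was 9.57, 9.26 and 9.27 after tCNT, against 9.57, 8.48, 8.45 and 8.61 after BayTubes and 7.92, 7.66 and 7.86 in Ctrl. BayTubes 17 and tCNT 7, the highest of their groups, were the samples on the shared array. The median difference of the list was 0.72 without BayTubes 17 and 0.38 without tCNT 7.

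**Figure D5:**
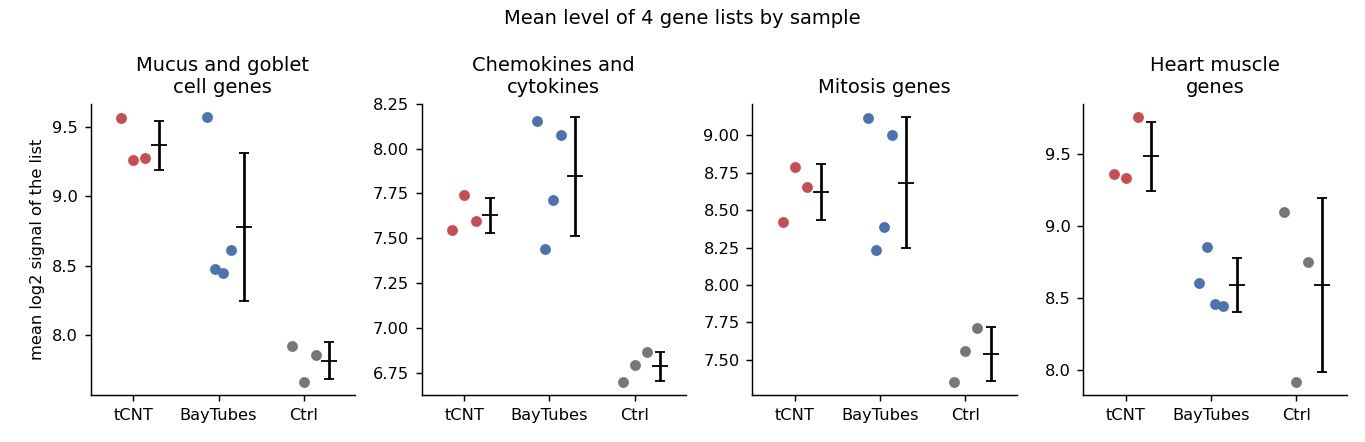
Mean log2 signal (vertical, a separate scale for each panel) of 4 gene lists in the tCNT (red), BayTubes (blue) and Ctrl (grey) samples; the black mark and bar are the group mean and SD. For mucus genes 1 BayTubes sample (number 17, 9.57) reaches the tCNT samples, and for chemokines and mitosis genes the nanotube groups overlap above Ctrl. For heart muscle the tCNT samples lie above the BayTubes and Ctrl samples.

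Other airway genes differed in the same direction as mucus genes without passing. Reg3g, an antimicrobial lectin, differed by 2.19 (0.29 to 4.10), Bpifa1, a secreted protein of the upper airway, by 2.00 (0.46 to 3.54), and Scgb3a1, a secretoglobin, by 1.40 (0.56 to 2.24, adjusted p = 0.40). Scgb1a1, the product of club cells, differed by -0.07 (-0.27 to 0.14). Of 23 measured motile cilium genes 0 passed, 1 had an unadjusted p under 0.05 (limma, 3.54% of all genes) and the median was 0.11. That gene was Foxj1, the master factor of motile cilia, with 10.73, 11.05 and 10.74 after tCNT, against 10.31, 10.20, 10.03 and 9.73 after BayTubes and 10.56, 10.18 and 10.11 in Ctrl. All tCNT samples lay above all BayTubes samples, with a difference of 0.72 ± 0.17 (SE, adjusted p = 0.164).

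Glucocorticoids are hormones that also set the clock. Of 16 measured genes that they induce, 0 were higher and 1 lower (Per1) after tCNT than after BayTubes. Over all genes 0.0484% were higher and 0.0423% lower. The median of the 16 was -0.05. Against Ctrl the list median was 0.07 after tCNT and 0.04 after BayTubes. After tCNT 2 of the 16 were higher than in Ctrl and 1 lower, against 0.684% and 0.0242% of all genes. After BayTubes 3 were higher and 1 lower, against 2.16% and 1.02%. Fkbp5 rose by 0.98 after tCNT (adjusted p = 0.0084) and by 1.12 after BayTubes (adjusted p = 0.0001), and differed by -0.14 (-0.44 to 0.16) between them. Zbtb16 rose by 1.64 after tCNT (adjusted p = 0.020) and by 1.30 after BayTubes (adjusted p = 0.0067). The glucocorticoid element, GNACA and TGTNC with 3 bases between them, stood in 3 of 25 promoters of these genes (12.0%, against 0.475% of all promoters). They were those of Map3k6, Mt1 and Sgk1, which did not pass between the nanotubes. The Per1 window did not hold it, but sites beyond 250 bases before or 50 after a start were not searched.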

How the data were processed

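The deposited values are log2 signals, 1 for each spot and sample. The authors used Agilent Feature Extraction and limma, per the submitters' processing notes, which give no settings. Ranked from low to high, values at the same rank differed between samples by 0.086 at the most. Of 62976 spots 31465 had a gene name, brought up to date with RefSeq (GRCm38.p6), and a gene was read from its spot with the highest mean. A gene had to exceed the 40th percentile of 3 or more samples, which left 16530 of 20738.

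All 24 samples were fitted with limma 3.58.1 (R 4.3.3, statmod 1.5.0), with group and dye as terms, array as a random block (correlation 0.40), with 16 residual degrees of freedom and 3.54 from the prior, and p-values were adjusted by the Benjamini-Hochberg method. The fit was tested on simulated data. Standard errors and intervals come from it, SDs from the samples.

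The samples compared, the 47 gene and marker lists and the named genes were chosen with earlier results of these data known. Named were genes past the threshold, the 10 with the smallest p in each direction, and members of lists. Alternatives changed the dye term, block, filter, normalization, spot, prior, slide, weights, threshold and samples. Fits within slide 1 or of 3 groups used the array correlation of all samples, and fits there without rCNT 4 and Graphite 16 were added after seeing the data. Spots without a gene name were tested apart.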

Additional observations from a re-analysis of the deposited data

Results flagged for a closer look

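Of 201 values tested in the BayTubes group, 16 had a single sample far from the other 3, where chance gives about 1 in 20. The same check was not run for the groups of 3, tCNT and Ctrl. BayTubes 17 was the highest for Clca1 (12.51, others 10.29 to 10.58), Muc5ac (8.78), Itln1 (8.52, others 5.54 to 5.97) and the mean level of mucus and goblet cell genes (9.57, others 8.45 to 8.61). It was the lowest for Pigr (15.53), Map3k6 (11.49) and the mean level of red blood cell markers (10.29, others 10.46 to 10.48). BayTubes 18 was the lowest for Cxcl2 (5.19) and Saa2 (5.56) and the highest for the heart muscle genes Myh6 (12.59, others 11.77 to 11.86) and Tnnc1 (7.19). BayTubes 20 was the highest for Wee1 (9.53, others 9.09 to 9.13), Clock (9.32, others 8.63 to 8.66), Srl (6.29), Il33 (12.68) and the mean level of mesothelium markers (10.7, others 10.15 to 10.23). For Wee1 the outlying sample lay away from tCNT, and for Clock and Srl it lay toward tCNT.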

How the results depend on the processing

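The count of genes that differed between tCNT and BayTubes (15) was 4 with no array block, 2 with array as a fixed term, 2 with only tCNT, BayTubes and Ctrl samples, 0 on slide 1 alone (1090 at an unadjusted p under 0.05, limma), 0 on slide 1 without rCNT 4 and Graphite 16 (1079) and 60 with array quality weights. It was 2 to 18 with 1 sample left out. The count after tCNT against Ctrl (117) was 0 with array as a fixed term (1049 at an unadjusted p under 0.05, limma), 23 with the 3 groups alone, 0 on slide 1 (798), 0 there without rCNT 4 and Graphite 16 (722), 658 with weights and 214 at an adjusted p under 0.1. Leaving out 1 sample gave 0 (without tCNT 8, 697 unadjusted) to 327 (without tCNT 7), with 24, 13 and 32 without Ctrl 1, 2 and 3, 14 without tCNT 9, and 247, 71 and 74 without BayTubes 17, 19 and 20. The count after BayTubes against Ctrl (526) was 240 with no array block, 61 with array as a fixed term, 5 on slide 1, 3 there without rCNT 4 and Graphite 16, 1246 with weights and 327 at 1.5-fold or more. Leaving out 1 sample gave 241 to 558, with 241, 247, 320 and 254 without Ctrl 2, Ctrl 3, BayTubes 17 and BayTubes 20.

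No value past its threshold changed sign, and the 15 genes kept their sign in every setting that tested them. Each setting used samples on which these genes were called, so the kept signs are no separate evidence. Spon2 was past the threshold in 23 of 25 settings, Arntl in 22, Per2 and Tspan4 in 19, Per1 in 16, Mthfd1l in 15, Ccnjl, Hlf and Tmem171 in 14, Leo1 in 13, Nfkbil1 and Wee1 in 11, Dbp in 10, Kmt5c in 8 and Tnni3k in 7. No paired analysis was possible because the groups share no replicate numbers, and a single array held a sample of both nanotubes. Fits with fewer samples have fewer degrees of freedom, and the cause of the other changes in counts was not tested. The number of samples limits what can be found, and the fit assumes 1 spread for all groups.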

Other observations

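Fat cell markers lay on the same side as heart muscle. All 10 measured markers (12 listed) had positive differences between tCNT and BayTubes, with a median of 0.32. Of them 0 passed an adjusted p under 0.05 (limma), while 2 had an unadjusted p under 0.05 (3.54% of all genes). Cidea, a lipid droplet protein, differed by 0.46 ± 0.11 (SE, adjusted p = 0.164), and every tCNT sample lay above every BayTubes sample. Cfd, a complement protease made in fat, had 10.75, 9.95 and 11.42 after tCNT, against 10.10, 9.78, 7.85 and 7.28 after BayTubes and 10.99, 9.06 and 9.28 in Ctrl. These groups overlapped, and the BayTubes samples alone spanned more than 2 units.

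Cyp1a1, the enzyme induced through the aryl hydrocarbon receptor, had 10.52, 7.71 and 7.31 after tCNT, against 6.81, 7.19, 7.21 and 6.82 after BayTubes and 11.31, 7.75 and 7.56 in Ctrl. tCNT 7 and Ctrl 1 stood about 3 units above the other samples of these groups. Scd1, which makes monounsaturated fatty acids, had 14.85, 15.31 and 15.36 after tCNT, against 14.15, 14.33, 14.37 and 14.74 after BayTubes and 14.96, 14.88 and 15.12 in Ctrl, with a difference of 0.81 ± 0.23 (adjusted p = 0.391).

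Lists with no member past the threshold between the nanotubes and a median within 0.1 of 0 included interferon-induced (-0.01), lysosome and cathepsin (-0.05), NRF2 target and glutathione (-0.03), matrix and fibrosis (0.06) and endoplasmic reticulum stress genes (0.02). Neutrophil markers had a median of -0.20, with 6 of 12 intervals within 2-fold. Of 16650 spots without a gene name that passed the filter, 1 differed between tCNT and BayTubes, and it was lower after tCNT, while 333 had an unadjusted p under 0.05.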
